A study of Mus musculus with 6 samples.

Results

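The genes described here are 7 amino acid transporter genes of the blood-brain barrier, Slc7a1, Slc7a3, Slc7a5, Slc3a2, Slc38a3, Slc38a5 and Slc6a6. They were taken by symbol from the 32286 features of 6 single-cell count matrices, and all 7 were found. The matrices come from brain microvessels of 3 Cldn5 iECKO and 3 control libraries, made with the 10x Genomics 3′ v3.1 droplet chemistry. Every mouse was C57Bl6, carried Cldn5 fl/fl and R26 YFP/YFP alleles, and was given 100 µl of tamoxifen at 20 mg/ml by mouth on 3 days at about 3 months of age. Cdh5-creERT2, a recombinase under an endothelial cadherin promoter that tamoxifen switches on, was present in the iECKO mice and absent from the controls. Cldn5 encodes claudin-5, which seals the tight junctions between brain endothelial cells, and the series title calls its deletion mosaic. The vessel fragments were pulled out with anti-PECAM1 beads, so endothelium is enriched by design. The labels do not say how many mice went into a library or how long after tamoxifen it was made, and p-values here reflect how much libraries vary, which may be technical.

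Amino acids are polar and do not cross the brain endothelium freely, so carriers in the luminal and abluminal membranes move them. Slc7a1 (CAT1) and Slc7a3 (CAT3) encode carriers of the cationic amino acids arginine, lysine and ornithine. Slc7a5 encodes LAT1, the exchanger of large neutral amino acids such as leucine and phenylalanine, and Slc3a2 encodes CD98hc, the heavy chain that brings LAT1 to the membrane. Slc38a3 (SNAT3) and Slc38a5 (SNAT5) encode sodium-coupled carriers of glutamine and a few other neutral amino acids, and Slc6a6 encodes TauT, the sodium- and chloride-coupled carrier of taurine.

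In the GENCODE vM21 annotation of GRCm38, Slc7a1 (ENSMUSG00000041313) lies on the minus strand at chr5:148327410-148399904, Slc7a3 (ENSMUSG00000031297) on the minus strand at chrX:101079210-101086020 and Slc7a5 (ENSMUSG00000040010) on the minus strand at chr8:121881150-121907694. Slc3a2 (ENSMUSG00000010095) lies on the minus strand at chr19:8706882-8723369 and Slc38a3 (ENSMUSG00000010064) on the minus strand at chr9:107650634-107669530. Slc38a5 (ENSMUSG00000031170) lies on the plus strand at chrX:8271133-8280179 and Slc6a6 (ENSMUSG00000030096) on the plus strand at chr6:91684053-91759066. RefSeq promoter windows of GRCm38.p6 matched 3 of the 7 genes. Shown are the 250 bases before the 2 annotated starts of Slc7a1, because some but not all of the fits below called this gene between the genotypes or by Cldn5 status. Also shown is a stretch of 30 bases from the window before 1 start of Slc38a5, because this gene had the widest range along the vessel tree. The first Slc7a1 window ends at the start of model Slc7a1-201, ahead of the gene, at chr5:148399905-148400154 on the minus strand. The second ends at the start of model Slc7a1-202, inside the gene and clear of the exons of its coding models, at chr5:148392816-148393065 on the minus strand. The Slc38a5 stretch, chrX:8271339-8271368 on the plus strand, precedes the start of model Slc38a5-201 but lies inside the annotated gene, in a window where 2 other coding models start and 2 coding-model exons overlap. Capitals mark matches to the searched motifs, each read 5′ to 3′ on the strand of the gene.
Slc7a1-201: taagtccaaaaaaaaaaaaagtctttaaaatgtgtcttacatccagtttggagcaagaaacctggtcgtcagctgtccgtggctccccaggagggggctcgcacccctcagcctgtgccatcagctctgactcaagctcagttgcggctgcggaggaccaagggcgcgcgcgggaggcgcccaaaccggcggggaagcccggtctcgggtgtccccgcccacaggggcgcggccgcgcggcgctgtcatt
Slc7a1-202: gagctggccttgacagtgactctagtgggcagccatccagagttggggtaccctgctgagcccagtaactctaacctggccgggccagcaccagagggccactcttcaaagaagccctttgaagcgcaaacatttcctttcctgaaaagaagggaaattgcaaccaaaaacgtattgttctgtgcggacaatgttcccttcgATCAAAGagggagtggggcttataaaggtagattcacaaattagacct
Slc38a5-201: gcagacaggtgaCACGTGtccctgttaaga
The 2 Slc7a1 windows differ in composition, with 62.4% G and C in the first and 50.0% in the second. A script searched both strands for CTTTGAT (the core bound by TCF/LEF factors of Wnt signalling), TGATGNAA (an amino acid response element) and CACGTG (an E-box). None was found before the start of Slc7a1-201, and 1 CTTTGAT, read on the opposite strand, stands at bases 48 to 42 before the start of Slc7a1-202. An E-box stands at bases 30 to 25 before the start of Slc38a5-201, downstream of the first annotated base of the gene. Of all 32851 windows of this length, 3.21% held CTTTGAT, 3.45% held TGATGNAA and 6.02% held CACGTG, so a match describes the sequence only.

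The iECKO libraries held 2714 to 7420 barcodes and 15727366 to 49350804 UMIs (unique molecular identifiers, each counting 1 captured transcript), and the control libraries 4049 to 6684 barcodes and 29721428 to 31638780 UMIs. After filtering, iECKO libraries kept 1894 to 4661 endothelial cells and control libraries 3143 to 4845, and 73 of 26420 kept barcodes occurred in more than 1 library. The 12 endothelial markers summed to 14839, 14192 and 16855 CPM (counts scaled to library size) in the endothelial cells of iECKO libraries 1 to 3 and to 16464, 13779.5 and 18178 CPM in those of controls 1 to 3, and none of the 12 was at 0. Cldn5 itself stood at 2829.6, 2269 and 2848 CPM in iECKO and 4749.8, 4255 and 4879 CPM in control endothelial cells, so the iECKO sums kept a large part of it. The YFP feature had 0 UMIs in every library and marks no cell. Every iECKO library stood apart from the controls in 1 subcluster, iECKO 1 the most: a capillary subcluster led by Apln, which encodes the peptide apelin, held 57.1, 21.1 and 5.89% of the endothelial cells of iECKO 1 to 3 and 0.607, 0.454 and 0.509% of those of controls 1 to 3. It was named capillary on a mean marker score of 0.0782, close to 0.0552 for venous markers, and none of its 10 leading genes is a capillary marker, so capillary results are also given without it.

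Along the vessel tree of the control libraries, 5 of the 7 genes had their highest level in capillary cells, Slc38a5 had it in venous cells and Slc6a6 in arterial cells. The same zone was highest in 3 of 3 libraries of each genotype for every one of the 7 genes. The zones were built from other genes of the same cells, with the 7 genes and 32 other amino acid transporter genes left out. How many of all genes separate between zones without overlap was not counted, so a lack of overlap between zones describes the values only. Levels are CPM scaled with TMM factors, which correct for differences in composition, and tests are edgeR's quasi-likelihood test on UMI counts summed per library and zone, with Benjamini-Hochberg adjustment over all genes tested.

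**Figure D1:**
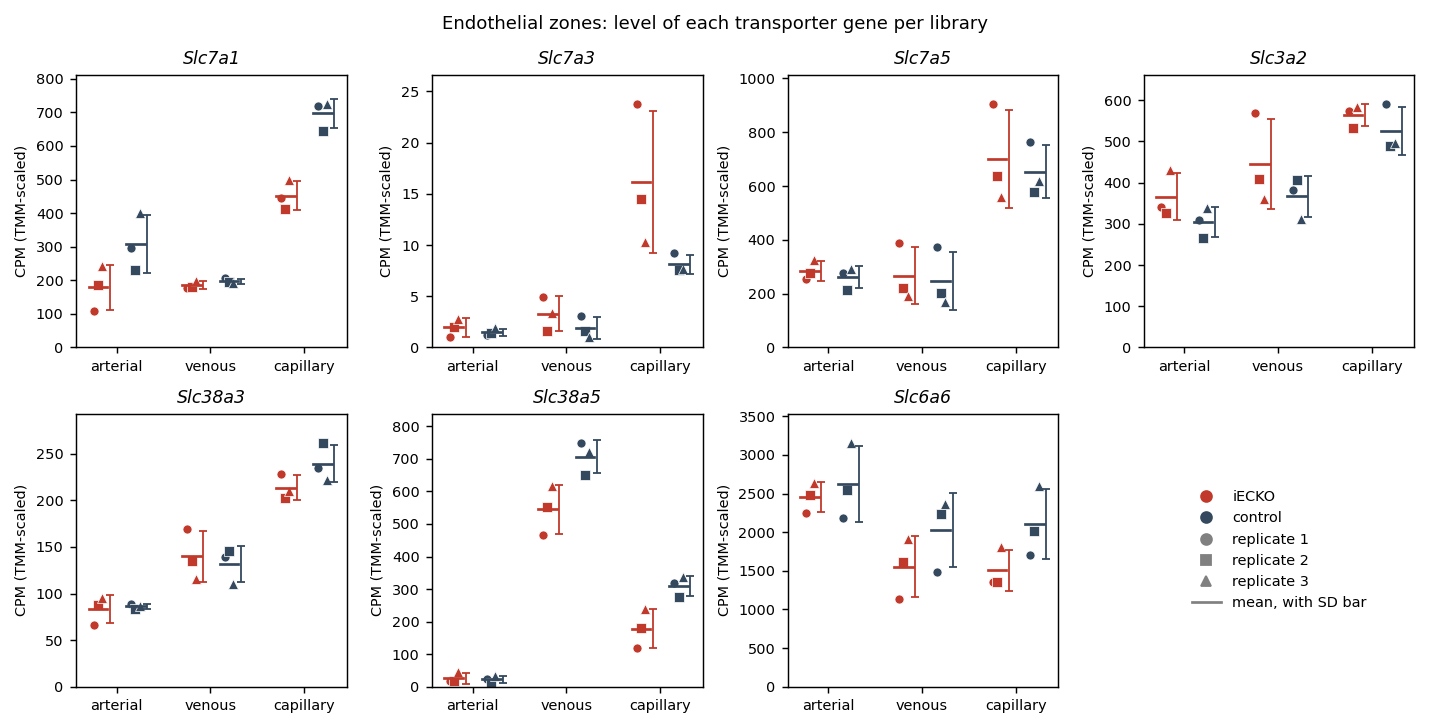
Level of each transporter gene in CPM (vertical axis, linear, from 0) in arterial, venous and capillary cells, 1 point per library, with iECKO left of control and a line and bar for the mean and SD of 3 libraries. Slc38a5 is near 0 in arterial cells and highest in venous cells, Slc6a6 is highest in arterial cells, and the other 5 genes are highest in capillary cells.

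Among the carriers of cationic amino acids, Slc7a1 stood in controls 1 to 3 at 296, 229.7 and 400.1 CPM in arterial cells and 206, 195 and 192 CPM in venous cells, against 719, 646 and 725 CPM in capillary cells. The capillary values lie above all arterial and venous ones. The log2 difference to capillary cells was -1.16 (SE 0.15, adjusted p = 0.00295) in arterial and -1.75 (SE 0.16, adjusted p = 0.000431) in venous cells by edgeR. Without control replicate 1 the arterial call of Slc7a1 missed the threshold (adjusted p = 0.0679 by edgeR). Slc7a3 was a low transcript, with 1.19, 1.39 and 1.89 CPM in arterial and 3.09, 1.61 and 1.02 CPM in venous cells, against 9.22, 7.54 and 7.65 CPM in capillary cells. Its arterial sums rest on 5, 6 and 13 UMIs and its venous sums on 7, 6 and 4 UMIs, against 137, 100 and 106 in capillary sums. The capillary values lie above all others. Slc7a3 was too low to be tested in the arterial or venous cells alone and entered the zone fits through the capillary sums where it is high, so no test is given for it between zones.

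The LAT1 light chain Slc7a5 had 278, 215 and 292 CPM in arterial and 372, 203 and 170.2 CPM in venous cells of the controls, against 765, 576 and 619.6 CPM in capillary cells. Its heavy chain Slc3a2 had 309, 266 and 339.7 CPM in arterial and 381, 407 and 311 CPM in venous cells, against 592, 489.8 and 495 CPM in capillary cells. For both genes no arterial or venous value reached the lowest capillary value. The heavy chain differed less between zones, with log2 differences to capillary cells of -0.74 (SE 0.13, adjusted p = 0.00667) in arterial and -0.45 (SE 0.13, adjusted p = 0.0366) in venous cells by edgeR, while the light chain gave -1.28 (SE 0.23, adjusted p = 0.0184) in arterial and -1.39 (SE 0.24, adjusted p = 0.011) in venous cells. Whether the 2 chains differ in their slope was not tested. Leaving out control replicate 2 ended both calls for Slc7a5 (adjusted p = 0.186 for arterial and 0.13 for venous cells by edgeR), and leaving out control replicate 1 ended both calls for Slc3a2 (0.0887 and 0.178).

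The glutamine carriers ran differently from each other. Slc38a3 stood at 88.4, 83.4 and 86.9 CPM in arterial and 139, 146 and 109.8 CPM in venous cells of the controls, against 235, 261 and 222 CPM in capillary cells. Its order was capillary, venous, arterial in 3 of 3 control libraries, with no overlap between zones, and log2 differences to capillary cells of -1.43 (SE 0.07, adjusted p = 4.57e-11) in arterial and -0.81 (SE 0.07, adjusted p = 6.72e-08) in venous cells by edgeR. Slc38a5 stood at 24.7, 10.7 and 32.2 CPM in arterial and 748, 651 and 720.4 CPM in venous cells, against 318, 275 and 336 CPM in capillary cells. It had the widest range of the 7 genes, ordered venous, capillary, arterial with no overlap, and its log2 differences to capillary cells were -3.72 (SE 0.24, adjusted p = 0.000335) in arterial and 1.26 (SE 0.19, adjusted p = 0.00524) in venous cells by edgeR. The arterial against venous difference of Slc38a5 was -4.98 (SE 0.25, adjusted p = 7.2e-05) by edgeR. Without control replicate 1 the venous call of Slc38a5 missed the threshold (adjusted p = 0.0846 by edgeR), at a log2 difference of 1.21.

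The taurine carrier Slc6a6 had 2178, 2543 and 3154 CPM in arterial and 1488, 2233 and 2372 CPM in venous cells of the controls, against 1712, 2022 and 2603 CPM in capillary cells. The ranges overlap, but within each control library the arterial value was the highest. The log2 difference to capillary cells was 0.35 (SE 0.06, adjusted p = 0.000285) in arterial cells by edgeR with the library as a block, and it was 0.00 (SE 0.06) in venous cells, where it did not pass.

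Leaving Slc7a3 aside, arterial against capillary cells called 1 of 6 genes higher and 5 lower, beside 28.3% of 11524 genes called in either direction. Venous against capillary cells called 1 of the 6 higher and 4 lower, beside 40.8% of genes. Arterial against venous cells called Slc7a1 and Slc6a6 higher and Slc38a3 and Slc38a5 lower, beside 37.8% of genes. In the order of levels, arterial and venous cells did not differ past the threshold for Slc7a5 (log2 difference 0.11, SE 0.25) or Slc3a2 (-0.29, SE 0.14), nor did venous and capillary cells for Slc6a6. The arterial-venous call of Slc7a1 (0.60, SE 0.16, adjusted p = 0.0371 by edgeR) missed the threshold without control replicate 1 (adjusted p = 0.16). Of the 32 other amino acid transporter genes, 18 were tested, of which arterial cells had 3 higher and 4 lower and venous cells 4 higher and 7 lower than capillary cells. By size of the log2 difference, the leading 6 in arterial cells were Slc7a7 (1.00), Slc1a1 (-0.97), Slc7a8 (0.83), Slc43a2 (-0.61), Slc38a2 (0.34) and Slc38a6 (-0.34). In venous cells they were Slc1a1 (-3.09), Slc7a11 (2.92), Slc1a3 (2.70), Slc1a4 (2.23), Slc6a17 (-1.81) and Slc7a6 (-1.60). Slc7a7 and Slc7a8 encode other light chains that pair with CD98hc, Slc1a1 and Slc1a3 glutamate carriers, and Slc7a11 the cystine-glutamate exchanger. Arterial against venous cells had 6 of the list higher and 4 lower, led by Slc7a11 (-4.15), Slc1a3 (-2.50), Slc6a17 (2.35), Slc1a1 (2.13), Slc1a4 (-1.95) and Slc7a6 (1.94).

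Between the genotypes, the clearest differences of the 7 genes in all endothelial cells were lower Slc7a1 and higher Slc7a3 in iECKO libraries. Both passed the threshold only when the replicate number was kept as a block. Libraries with the same number deviated together, so the fit with the block is given beside the one without it. Slc7a1 stood at 356, 329.7 and 384 CPM in iECKO 1 to 3, against 548, 444 and 530.0 CPM in controls 1 to 3. Every iECKO library lay below every control. Slc7a3 stood at 17.96, 10.1 and 7.23 CPM in iECKO libraries, against 6.58, 4.80 and 4.80 CPM in controls, from 504, 121 and 195 and 149, 114 and 123 UMIs. Every iECKO library lay above every control, with iECKO 1 far above the rest. How many of all genes separate in this way was not counted, here or below, so a lack of overlap describes the values only. By edgeR, Slc7a1 differed by -0.50 (SE 0.09, adjusted p = 0.0318) with the block and -0.50 (SE 0.16, adjusted p = 0.414) without it on the log2 scale. Slc7a3 differed by 1.06 (SE 0.18, adjusted p = 0.0287) with the block and 1.14 (SE 0.32, adjusted p = 0.352) without it.

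**Figure D2:**
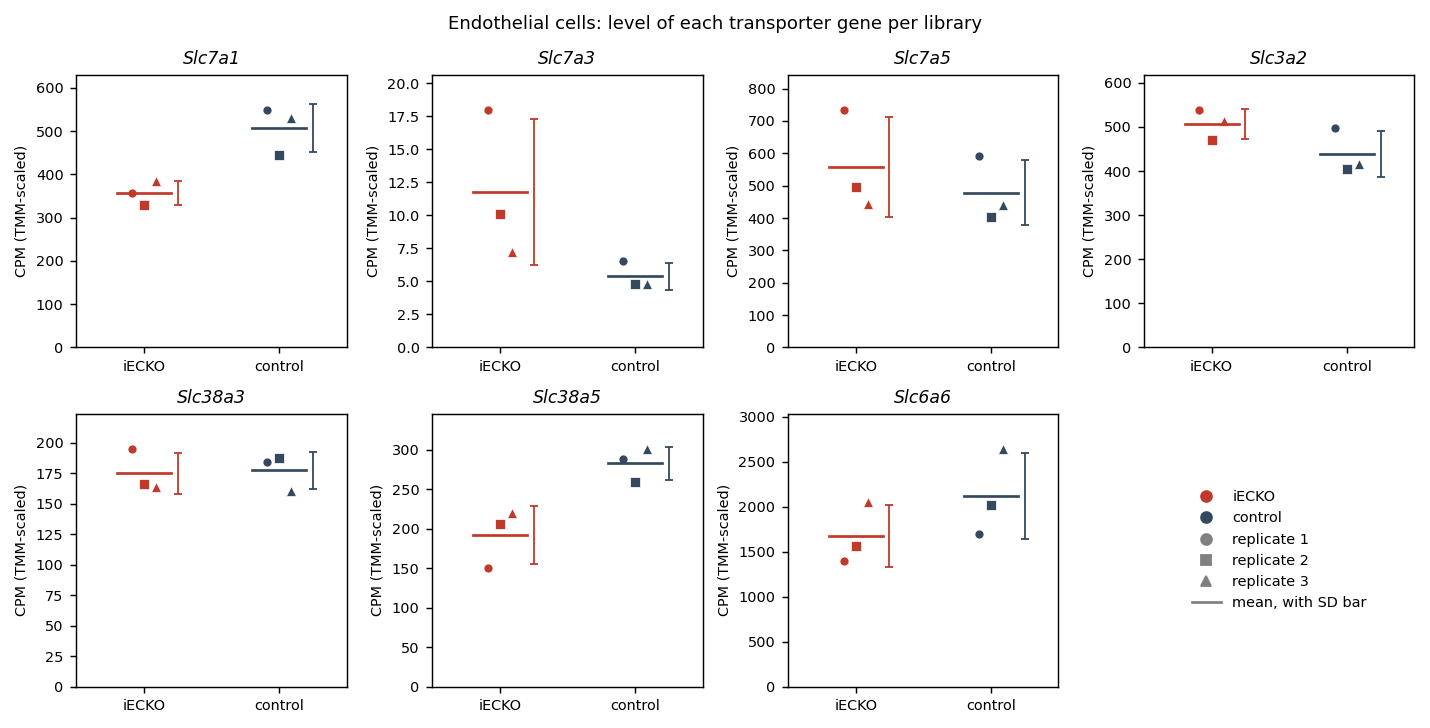
Level of each transporter gene in CPM (vertical axis, linear, from 0) in all endothelial cells, 1 point per library, iECKO left of control, with the mean and SD of 3 libraries. The groups do not overlap for Slc7a1, Slc7a3 and Slc38a5, and they overlap for the other 4 genes. The share of all genes without overlap was not computed.

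Slc38a5 stood at 151, 206 and 219.8 CPM in iECKO libraries, against 288, 259.7 and 301 CPM in controls. The groups do not overlap, yet the log2 difference of -0.57 (SE 0.12, adjusted p = 0.0666) with the block and -0.55 (SE 0.17, adjusted p = 0.415) without it missed the threshold by edgeR. Slc6a6 stood at 1398, 1565 and 2056 CPM in iECKO libraries, against 1701, 2015 and 2637 CPM in controls. The ranges overlap, while each iECKO library lay below the control of the same number, and the difference of -0.33 (SE 0.09, adjusted p = 0.0977) with the block did not pass by edgeR. The LAT1 chains went the other way without passing. Slc7a5 had 733, 495 and 443 CPM in iECKO libraries, against 592, 402 and 439 CPM in controls. Slc3a2 had 538, 469.9 and 513 CPM in iECKO libraries, against 498, 404 and 415 CPM in controls. Both sets of ranges overlap, with log2 differences of 0.21 (SE 0.09) and 0.22 (SE 0.09) with the block. Slc38a3 averaged 175 ± 17.1 CPM in iECKO and 177 ± 15.04 CPM in control libraries (SD, n = 3 each), a log2 difference of -0.01 (SE 0.09) with the block.

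With each library left out in turn, the unblocked differences ran from -0.58 to -0.44 for Slc7a1, 0.66 to 1.41 for Slc7a3 and -0.65 to -0.42 for Slc38a5. Without the block, edgeR called 0 of the 7 genes, beside 0.0151% of 13265 genes, and 3 of the 7 had an unadjusted p under 0.05. DESeq2 also called 0. With the block, 1 of the 7 was higher and 1 lower, beside 1.64% of genes. The astrocyte marker list, 7 genes of another cell type, summed to 179, 121 and 94.6 CPM in iECKO endothelial cells and 72.1, 65.6 and 68.4 CPM in control endothelial cells, and the 9 pericyte markers to 81.3, 99.0 and 72.4 CPM in iECKO and 39.7, 61.4 and 43.0 CPM in control endothelial cells. No astrocyte marker was at 0 in the iECKO sums, and their part in these results was not tested.

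Within the zones, lower Slc7a1, lower Slc6a6 and higher Slc7a3 passed in iECKO capillary cells with the block, while 0 of the 7 genes passed in arterial or venous cells. Slc7a3 is left aside in the zone by genotype terms, its arterial and venous sums being too low. No such term of the other genes passed with the filter on low counts, so a difference between zones was not shown. In capillary cells, Slc7a1 stood at 444, 414 and 498 CPM in iECKO libraries, against 719, 646 and 725 CPM in controls. Slc38a5 stood at 119, 179 and 238 CPM in iECKO libraries, against 318, 275 and 336 CPM in controls. Neither gene overlapped between the genotypes. The log2 difference of Slc7a1 was -0.59 (SE 0.09, adjusted p = 0.0132) with the block and -0.59 (SE 0.16, adjusted p = 0.219) without it, and that of Slc38a5 was -0.81 (SE 0.19, adjusted p = 0.0844) with the block and -0.76 (SE 0.24, adjusted p = 0.267) without it, by edgeR. Slc6a6 stood at 1359.5, 1351 and 1807 CPM in iECKO capillary cells, against 1712, 2022 and 2603 CPM in control capillary cells. Its ranges overlap, and the difference was -0.45 (SE 0.10, adjusted p = 0.0435) with the block and -0.46 (SE 0.22, adjusted p = 0.558) without it by edgeR. Slc7a3 stood at 23.8, 14.5 and 10.3 CPM in iECKO capillary cells, against 9.22, 7.54 and 7.65 CPM in control capillary cells, a difference of 0.97 (SE 0.19, adjusted p = 0.0292) with the block and 1.03 (SE 0.29, adjusted p = 0.227) without it by edgeR. With each library left out in turn its unblocked difference ran from 0.60, without iECKO replicate 1, to 1.28, without iECKO replicate 3, where it passed (adjusted p = 0.037). Those of Slc6a6 ran from -0.61 to -0.28, the smallest without control replicate 3.

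Slc7a5, Slc3a2 and Slc38a3 differed in capillary cells by 0.11, 0.14 and -0.13 on the log2 scale with the block, and none of the 3 passed. The block called 3 of the 7 genes in capillary cells, 1 higher and 2 lower, beside 4.21% of 12328 genes. Without it 0 were called, beside 0.13% of genes, 3 were under an unadjusted p of 0.05, and DESeq2 called 2, Slc7a1 and Slc38a5, beside 299 of 12328 genes.

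In arterial cells, Slc7a1 stood at 109, 186 and 242 CPM in iECKO libraries, against 296, 229.7 and 400.1 CPM in controls. The groups overlap, and the log2 difference of -0.80 (SE 0.22, adjusted p = 0.356) with the block did not pass by edgeR. In venous cells, Slc7a1 stood at 178, 181 and 198 CPM in iECKO libraries, against 206, 195 and 192 CPM in controls, a difference of -0.07 (SE 0.10) with the block. Venous Slc38a5 stood at 465, 553 and 617 CPM in iECKO libraries, against 748, 651 and 720.4 CPM in controls. Its groups do not overlap, and the difference of -0.37 (SE 0.12, adjusted p = 0.16) with the block did not pass by edgeR. Arterial Slc38a5 was low in both genotypes, with 16.6, 16.7 and 46.3 CPM in iECKO and 24.7, 10.7 and 32.2 CPM in control libraries. Slc7a3 was too low to be tested in either zone.

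In arterial cells, edgeR called 0 of 6 genes tested without the block, with 1 at an unadjusted p under 0.05, beside 0% of 11008 genes (DESeq2 called 15, and 343 were under an unadjusted p of 0.05), and 0 with it, beside 0.772%. In venous cells, 0 of 6 were called without the block, with 0 at an unadjusted p under 0.05, beside 0% of 10500 genes (DESeq2 called 22, and 522 were under an unadjusted p of 0.05), and 0 with it, beside 0.524%. Leaving Slc7a3 aside, the test of the difference itself, arterial against capillary, called 0 of 6 genes, beside 0.0337% of 11863 genes. Its largest terms were 1.11 (SE 0.39, adjusted p = 0.434) for Slc38a5 and 0.39 (SE 0.14, adjusted p = 0.346) for Slc6a6 by edgeR, with a positive sign where iECKO minus control was higher in arterial than in capillary cells. The venous against capillary term called 0 of the same 6 genes, beside 0.464% of genes, with 0.52 (SE 0.27, adjusted p = 0.531) for Slc7a1 by edgeR. Of these 6 genes, 2 had an unadjusted p under 0.05 in the arterial term and 0 in the venous term.

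**Figure D3:**
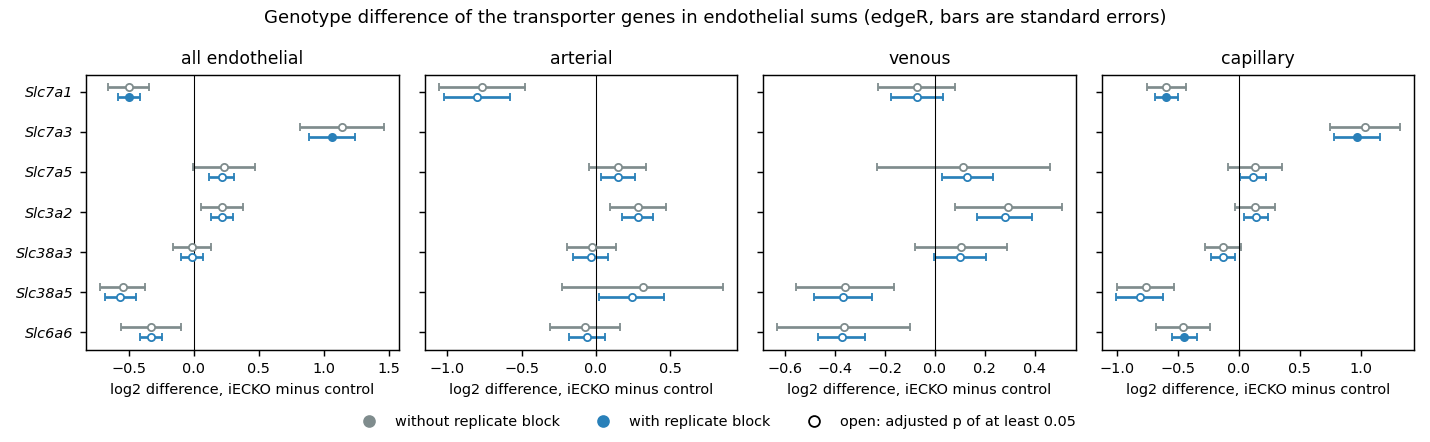
Log2 difference, iECKO minus control, of each transporter gene (horizontal axis; bars are standard errors) in all endothelial cells and in each zone, without and with the replicate number as a block. Filled points passed an adjusted p of 0.05: Slc7a1 and Slc7a3 in all endothelial cells, and Slc7a1, Slc7a3 and Slc6a6 in capillary cells, each with the block.

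Slc7a3 was higher in Apln-led than in other capillary cells of each library that could be compared. With the Apln-led cells left out, lower Slc7a1, Slc38a5 and Slc6a6 in iECKO capillary cells passed with the block and higher Slc7a3 did not, while without the block 0 of 12087 genes passed by edgeR, with 430 at an unadjusted p under 0.05. The Apln-led cells numbered 2660, 400 and 178 in iECKO 1 to 3 and 27, 22 and 16 in controls 1 to 3, and the last control was left out of sums for holding under 20. In Apln-led cells, Slc7a3 stood at 28.5, 16.5 and 14.4 CPM in iECKO libraries, against 17.8 and 11.4 CPM in controls 1 and 2, where it rests on 3 and 2 UMIs. In the other capillary cells it stood at 7.69, 12.97 and 9.59 CPM in iECKO libraries, against 9.09, 7.37 and 7.64 CPM in controls, and the groups overlap. Slc7a1 stood in the other capillary cells at 520.4, 418 and 515 CPM in iECKO libraries, against 721, 639.5 and 718 CPM in controls. Slc38a5 stood there at 191, 194 and 248 CPM in iECKO libraries, against 319.7, 272 and 335 CPM in controls. Neither of these 2 genes overlapped.

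**Figure D4:**
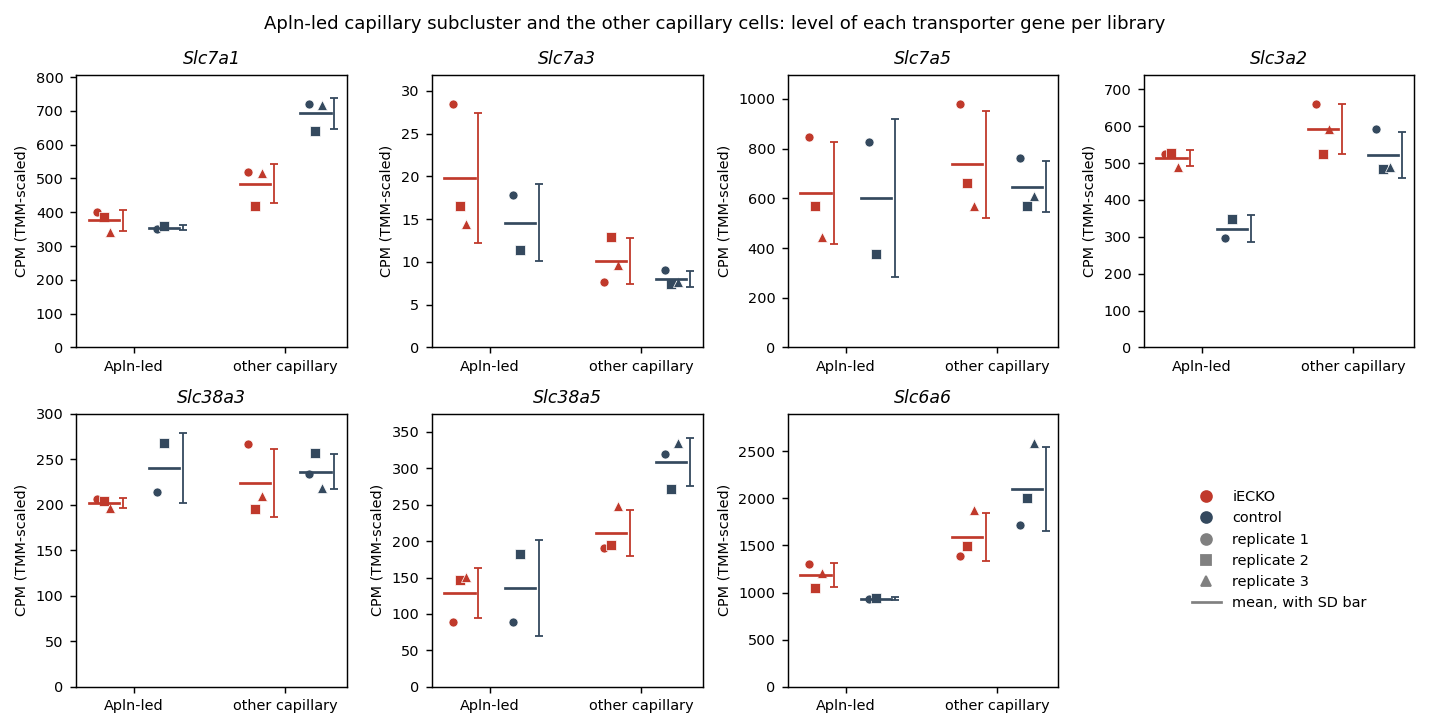
Level of each transporter gene in CPM (vertical axis, linear, from 0) in the Apln-led capillary cells and in the other capillary cells, 1 point per library, iECKO left of control, with the mean and SD; control 3 had too few Apln-led cells. Slc7a3 is higher in the Apln-led than in the other capillary cells of each library plotted, and Slc7a1, Slc38a5 and Slc6a6 are lower there than in the other control capillary cells.

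With the block and without the Apln-led cells, edgeR called 3 of the 7 genes in capillary cells, all lower, beside 1.5% of genes. They were Slc7a1 (-0.50, SE 0.09, adjusted p = 0.00381), Slc38a5 (-0.54, SE 0.09, adjusted p = 0.00282) and Slc6a6 (-0.38, SE 0.09, adjusted p = 0.0426), while Slc7a3 lost its call (0.33, SE 0.18, adjusted p = 0.537). In all endothelial cells without the Apln-led cells, the blocked difference of Slc7a1 was -0.63 (SE 0.10, adjusted p = 0.0633) and that of Slc7a3 0.28 (SE 0.22, adjusted p = 0.729), and neither passed by edgeR. The Apln-led cells of the 2 genotypes were similar for Slc7a1, with 401, 387 and 342 CPM in iECKO libraries, against 350.3 and 359 CPM in controls 1 and 2. Slc6a6 had 1299, 1051 and 1207 CPM there in iECKO libraries, against 926 and 947 CPM in controls 1 and 2. These levels are given without a test, since the subcluster was built from the same cells. The 9 capillary markers moved with the genotype in capillary cells, summing to 4434, 6199 and 8112 CPM in iECKO libraries and 8995, 8887 and 9963 CPM in controls, and their part in the capillary results was not tested.

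Within the iECKO libraries, capillary cells without a Cldn5 UMI had lower Slc38a5, Slc7a1, Slc3a2 and Slc38a3 than capillary cells of the same library with Cldn5. The labels mark no recombined cells, so cells of at least 2000 UMIs were called undetected at 0 Cldn5 UMIs and detected at 2 or more. Undetected cells made up 16.7, 11.9 and 11.6% of capillary cells in iECKO 1 to 3 and 0.449, 0.688 and 0.109% in controls 1 to 3. Slc38a5 stood at 58.3, 97.5 and 154 CPM in undetected cells, against 128, 189.8 and 250.3 CPM in detected cells of iECKO 1 to 3. Undetected cells thus held 45.5%, 51.4% and 61.4% of the level in detected cells. The log2 difference was -0.85 (SE 0.09, adjusted p = 2.62e-13) by edgeR with the library as a block. edgeR estimates variance partly from all genes together, so p-values this small do not come from the spread of 3 libraries alone.

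Slc7a1 stood at 333, 292 and 430.4 CPM in undetected cells, against 456, 429.7 and 505 CPM in detected cells, a log2 difference of -0.34 (SE 0.06, adjusted p = 2.84e-05). Slc3a2, the heavy chain, stood at 445, 447 and 478 CPM in undetected cells, against 584, 545 and 603 CPM in detected cells, with a difference of -0.29 (SE 0.06, adjusted p = 0.000131). Slc38a3 stood at 182, 132 and 169 CPM in undetected cells, against 227, 209 and 214 CPM in detected cells, with a difference of -0.34 (SE 0.08, adjusted p = 0.000923). All 4 genes were lower in the undetected cells of 3 of 3 libraries, and the adjusted p-values are from edgeR. The LAT1 light chain Slc7a5 stood at 801, 598 and 586 CPM in undetected cells, against 898, 641 and 553 CPM in detected cells. It was lower in iECKO 1 and 2 and higher in iECKO 3, with a log2 difference of -0.01 (SE 0.06). Slc7a3 and Slc6a6 differed by 0.03 (SE 0.20) and -0.03 (SE 0.05), and neither passed.

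**Figure D5:**
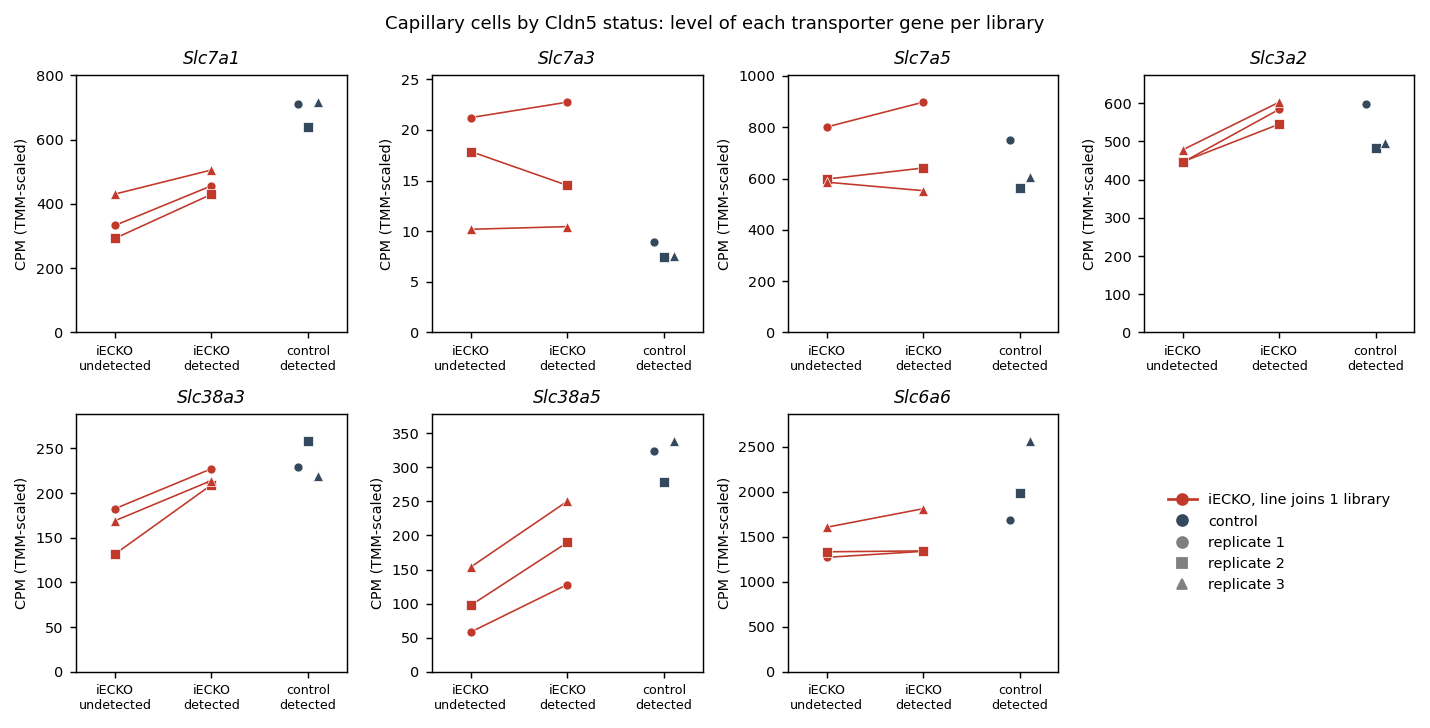
Level of each transporter gene in CPM (vertical axis, linear, from 0) in capillary cells of at least 2000 UMIs, split by Cldn5 detection; lines join the undetected and detected cells of 1 iECKO library, and detected control cells stand at the right. Slc38a5, Slc7a1, Slc3a2 and Slc38a3 are lower in undetected than in detected cells of all 3 iECKO libraries.

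These 4 calls, all lower, stand beside 7.32% of 11154 genes called. Without the Apln-led cells only Slc38a5 still passed (-0.91, SE 0.11, adjusted p = 2.96e-13 by edgeR), with Slc7a1 at -0.22 (SE 0.08, adjusted p = 0.128), Slc3a2 at -0.22 (SE 0.08, adjusted p = 0.0944) and Slc38a3 at -0.29 (SE 0.10, adjusted p = 0.0778). The same 3 genes missed the threshold without iECKO replicate 1 (adjusted p = 0.106, 0.1 and 0.0663 by edgeR). Compared within the capillary subclusters of each library that held at least 20 cells of both kinds, the same 4 genes passed by edgeR, beside 2.66% of 9062 genes: Slc38a5 at -0.54 (SE 0.10, adjusted p = 2.18e-05), Slc7a1 at -0.24 (SE 0.07, adjusted p = 0.0329), Slc3a2 at -0.21 (SE 0.06, adjusted p = 0.049) and Slc38a3 at -0.35 (SE 0.08, adjusted p = 0.00314). Left out were a subcluster led by Ndnf in iECKO 1 and 2, with 10 undetected cells in each, and the Apln-led one in iECKO 3, with 17. Subclusters of 1 library entered this fit as separate pairs and are not independent, so its p-values do not measure how libraries vary.

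Other features of the cells moved with Cldn5 status. The 11 venous markers summed to 1761, 1292 and 1935 CPM in undetected capillary cells, against 3321, 2398 and 2979.7 CPM in detected ones. The 14 arterial markers summed to 691, 353 and 229 CPM in undetected cells, against 379.6, 178 and 126 CPM in detected cells. So undetected capillary cells had lower venous and higher arterial marker sums in each library, and the 9 capillary markers were close, at 4353, 5941 and 8507 CPM in undetected and 4393, 6190.4 and 8066 CPM in detected cells. Markers of other cell types moved too. The 7 astrocyte markers summed to 237, 151 and 123 CPM in undetected cells, against 197, 124 and 93.3 CPM in detected cells, with 1, 4 and 4 of the 7 at 0 in the undetected sums. The 5 choroid plexus markers summed to 132, 194 and 64.6 CPM in undetected cells, against 96.0, 116 and 50.8 CPM in detected cells, with 1, 4 and 4 of the 5 at 0 in the undetected sums. Both sums were higher in the undetected cells of each library. Median depth was 3372, 4139 and 4338 UMIs in undetected cells, against 4990.0, 5804 and 5796 UMIs in detected cells. After each cell was thinned to 2000 UMIs, 4 of the 7 genes passed, beside 410 of 9707 genes. The part of the marker sums in the transporter differences was not tested.

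Over all endothelial cells of the iECKO libraries, the split by Cldn5 status called 5 of the 7 genes lower in undetected cells, beside 12.7% of 11906 genes. They were Slc38a5 (-1.53, SE 0.08, adjusted p = 7.31e-25), Slc38a3 (-0.63, SE 0.07, adjusted p = 1.19e-10), Slc7a1 (-0.56, SE 0.06, adjusted p = 5.12e-11), Slc3a2 (-0.36, SE 0.06, adjusted p = 4.01e-06) and Slc7a5 (-0.22, SE 0.06, adjusted p = 0.00583) by edgeR. These sums mix zones: venous cells, where Slc38a5 is highest, were 18 of 722, 11 of 225 and 12 of 428 undetected cells in iECKO 1 to 3. Among detected cells they were 194 of 3067, 145 of 1307 and 149 of 2325. The part of the zones in these differences was not tested. A subcluster led by Plvap, the marker of fenestrated endothelium, held 10.9, 13.3 and 11.9% of the undetected cells of iECKO 1 to 3 and 88.6, 87.2 and 93.8% of those of controls 1 to 3. In these cells Slc7a1 was low, with 25.7, 30.3 and 14.2 CPM in iECKO and 18.5, 25.2 and 40.1 CPM in control libraries. Without them 4 of the 7 genes were called lower, beside 8.37% of genes, and Slc7a5 was at 0.05 (SE 0.06, adjusted p = 0.731) by edgeR. The same split in control cells gave a larger difference for Slc7a1, with 49.9, 39.2 and 19.4 CPM in undetected control cells, against 578, 481 and 551 CPM in detected ones. In the undetected control sums Slc7a3 had almost no UMIs, Slc38a5 had 4 to 5 and Slc38a3 had 4 to 12. No test of their status by genotype terms is given. For Slc7a1, Slc7a5, Slc3a2 and Slc6a6 this term passed by edgeR, beside 20.1% of 12455 genes. Without the Plvap-led cells 0 of the 7 terms passed by edgeR, beside 186 of 14023 genes. That fit rests on 1 undetected control sum of 21 cells, its median term over all genes was 2.75 on the log2 scale, and nothing is read from it about the 7 genes.

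Set against the Cldn5-detected cells of the controls, detected iECKO cells had lower Slc7a1 and higher Slc7a3 with the block, and undetected iECKO cells had lower Slc7a1 and much lower Slc38a5. The 2 comparisons share the control sums, so their values are given side by side and are not independent. Their sums also mix zones and hold the Plvap-led cells, and the part of the zones in these differences was not tested. In all endothelial cells, Slc7a1 stood at 248, 226 and 265 CPM in undetected iECKO cells and 373, 354 and 403 CPM in detected iECKO cells, against 578, 481 and 551 CPM in detected control cells. Slc38a5 stood at 48.9, 77.4 and 91.9 CPM in undetected iECKO cells and 171, 230.1 and 242 CPM in detected iECKO cells, against 314, 291 and 317 CPM in detected control cells. For both genes the 3 kinds of cell do not overlap and follow this order. Against detected control cells, edgeR gave Slc7a1 -1.05 (SE 0.17, adjusted p = 0.00418) in undetected and -0.48 (SE 0.16, adjusted p = 0.442) in detected iECKO cells. Slc38a5 gave -2.02 (SE 0.22, adjusted p = 0.000268) in undetected and -0.49 (SE 0.16, adjusted p = 0.45) in detected iECKO cells by edgeR.

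In undetected iECKO cells against detected control cells, 2 of the 7 genes were called, both lower, beside 4.07% of 12442 genes, and with the block 5 were called, beside 9.82%. The block added Slc38a3 (-0.65, SE 0.13, adjusted p = 0.00291), Slc6a6 (-0.47, SE 0.11, adjusted p = 0.0113) and Slc7a3 (0.93, SE 0.27, adjusted p = 0.0374) by edgeR, the last of them higher. Without the Plvap-led cells Slc7a1 missed the threshold unblocked (-0.80, SE 0.18, adjusted p = 0.0597) and passed with the block (-0.80, SE 0.13, adjusted p = 0.000104). Without the Apln-led cells Slc7a3 lost its blocked call (-0.16, SE 0.49, adjusted p = 0.933). In detected iECKO cells against detected control cells, 0 of the 7 were called, beside 0.0382% of 13075 genes, with 3 at an unadjusted p under 0.05 and 0 called by DESeq2. With the block, Slc7a1 (-0.48, SE 0.09, adjusted p = 0.0309) and Slc7a3 (1.03, SE 0.17, adjusted p = 0.025) passed by edgeR, beside 2% of genes, and without the Apln-led cells neither did (-0.61, SE 0.10, adjusted p = 0.0653, and 0.25, SE 0.22, adjusted p = 0.744).

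The share of endothelial cells with a UMI passed no test between the genotypes for any of the 7 genes. After thinning each cell to 2000 UMIs, Slc7a1 was found in 40.5, 37.6 and 48.7% of endothelial cells of iECKO 1 to 3, against 56.4, 48.6 and 61.2% in controls 1 to 3. The ranges overlap because iECKO 3 lay just above control 2. Without thinning the shares of Slc7a1 were 60.9, 59.0 and 72.2% in iECKO and 72.5, 64.3 and 79.4% in control libraries, and thinning left out 131 to 586 iECKO and 215 to 764 control cells per library as too shallow. In microglia, where UMIs of Slc7a1 may come from free RNA, its share was 4.48, 4 and 1.45% in iECKO and 1.44, 5.56 and 0.971% in control libraries, with 3364 to 5745 UMIs at the median before thinning, against 4018 to 5933 in endothelial cells. Slc38a5 was found in 15.8, 22.9 and 25.7% of iECKO endothelial cells, against 28.0, 23.8 and 32.1% of control ones, and in 0, 4 and 0% of iECKO and 0.719, 1.39 and 0% of control microglia. Slc6a6 was found in 76.0, 79.4 and 90.1% of iECKO endothelial cells, against 87.7, 87.9 and 95.2% of control ones. For Slc38a5 the iECKO and control ranges overlap, and for Slc6a6 too. Slc7a3 was found in 3.39, 2.16 and 1.38% of iECKO endothelial cells, against 1.52, 0.833 and 1.20% of control ones, and in 0 of 25 to 139 microglia per library, which allows a share of up to 2.62% in control 1 and 13.7% in iECKO 2 (upper 95% Clopper-Pearson bounds, for counting error only). None of the 7 shares passed the two-sided exact permutation test, with p between 0.2 and 0.8, where 3 libraries against 3 cannot go below 0.1, and the smallest value adjusted over 7 tests was 0.467.

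In pericytes and microglia of the same preparations, Slc3a2 and Slc6a6 were the genes of the 7 with enough UMIs to test in both. In pericytes, the mural cells of capillaries, Slc7a3 had 0 UMIs in every library and Slc38a3 2, 0 and 0 UMIs in iECKO and 1, 0 and 0 in control libraries. Slc3a2, which also pairs with other light chains, had 84.1, 138 and 197 CPM in iECKO pericytes, against 98.3, 137 and 109 CPM in control pericytes. In microglia it had 378, 536 and 432 CPM in iECKO libraries, against 339, 393 and 295 CPM in controls, so it is not limited to endothelial cells. In pericytes 2 of the 7 genes could be tested, and 0 were called without the block (beside 0.0646% of 3098 genes) or with it (0.452%). In microglia 3 could be tested, and 0 were called without the block (beside 0.047% of 6382 genes) or with it (0.36%). DESeq2 called 0 in both, and 0 had an unadjusted p under 0.05 without the block.

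Among the 32 other amino acid transporter genes, a list taken as background to the 7, Slc1a1 stood out between genotypes. In endothelial cells Slc1a1 had 266, 259.8 and 181 CPM in iECKO libraries, against 173, 157 and 132 CPM in controls. Every iECKO library lay above every control, and the log2 difference with the block was 0.60 (SE 0.09, adjusted p = 0.019) by edgeR. It was the 1 gene of 23 tested that passed, beside 1.64% of all genes. In capillary cells Slc1a1 and the neutral amino acid carrier Slc1a5 were higher (0.54, SE 0.10, adjusted p = 0.0234, and 1.03, SE 0.24, adjusted p = 0.0477, by edgeR with the block), 2 of 20 tested, beside 4.21% of all genes. In venous cells Slc1a1 was higher (1.01, SE 0.14, adjusted p = 0.00223 by edgeR with the block), 1 of 15, beside 0.524%. The median log2 difference of the list in endothelial cells was 0.13 with the block, beside -0.01 for the 7 genes and 0.0032 for all genes. Without the block 0 of the list passed in endothelial cells by edgeR, beside 0.0151% of all genes, and 8 had an unadjusted p under 0.05, beside 977 of 13265 genes.

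A list of 20 genes of the amino acid response, which the factor ATF4 drives when amino acids are short, had 0 of 18 tested past the threshold in endothelial cells with or without the block by edgeR, where 4 and 7 had an unadjusted p under 0.05 without and with it, with a median log2 difference of 0.08 with it. In capillary cells with the block 2 of 16 were higher, beside 4.21% of all genes called. They were the proline synthesis gene Aldh18a1 (1.26, SE 0.26, adjusted p = 0.0335) and the translation repressor gene Eif4ebp1 (0.62, SE 0.14, adjusted p = 0.0471) by edgeR. Aldh18a1 stood at 4.30, 5.35 and 3.36 CPM in iECKO capillary cells, against 1.35, 3.02 and 1.44 CPM in control ones, and the groups do not overlap. The stress-induced factor Atf3 was lower in iECKO arterial (-0.71, SE 0.13, adjusted p = 0.0313) and venous cells (-0.80, SE 0.12, adjusted p = 0.00555) with the block by edgeR. It was 1 of 15 tested in arterial cells, beside 0.772% of all genes, and 1 of 13 in venous cells, beside 0.524%. Between undetected and detected iECKO capillary cells, Slc36a1 was higher (0.64, SE 0.20, adjusted p = 0.0269 by edgeR), 1 of 17 other transporter genes tested. The response genes Ddit4 (-0.35, SE 0.10, adjusted p = 0.0201) and Cebpb (-0.76, SE 0.22, adjusted p = 0.0127) were lower by edgeR, 2 of 14. Both counts stand beside 7.32% of all genes called. Over all endothelial cells the same split called Slc7a11 (-2.46, SE 0.52, adjusted p = 0.000275) and Slc36a1 (0.58, SE 0.16, adjusted p = 0.0057) by edgeR, 2 of 17 transporter genes. It also called Ddit4 (-0.49), Atf3 (-0.44) and Eif4ebp1 (-0.38), 3 of 15 response genes. Both counts stand beside 12.7% of all genes called. Undetected iECKO against detected control cells called Slc1a3 (-1.30, SE 0.31, adjusted p = 0.0383 by edgeR), 1 of 19 transporter genes, beside 4.07% of all genes. The block added Slc1a1 (0.55) and the response genes Nupr1 (-1.92) and Atf3 (-0.80), beside 9.82% of all genes called with it. Detected iECKO against detected control cells called Slc1a1 (0.58, SE 0.09, adjusted p = 0.0216 by edgeR) with the block, 1 of 22, beside 2% of all genes. Counts near the share of all genes are not read as results about the lists.

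Over the 18 sums of 6 libraries and 3 zones, the genes whose log2 CPM ran most like each of the 7 were named by Pearson's r among 6344 genes of at least 20 CPM. These values are descriptions, since sums of 1 library share cells and depth, and they carry no test. For Slc7a1 they were Tfrc (0.935), Nkd1 (0.930) and Slc16a4 (0.928), and for Slc7a3 Inf2 (0.955), Smox (0.922) and Srsf1 (0.918). Slc7a5 ran most like Gjc1 (0.954), Grb10 (0.943) and Tbc1d14 (0.942), and Slc3a2 most like Coro2b (0.926), Paqr7 (0.878) and Abcg1 (0.876). The genes nearest to Slc38a3 were Slc31a1 (0.935), Cnot6l (0.932) and Ttyh2 (0.931), and those nearest to Slc38a5 were Car14 (0.974), Flrt2 (0.971) and Klk8 (0.970). Slc6a6 was closest to Vapb (0.914), Myct1 (0.888) and Ubac1 (0.871). Among the 7 themselves the 2 chains of LAT1 had r = 0.83, the cationic carriers Slc7a1 and Slc7a3 0.72 and the glutamine carriers 0.63. Slc6a6 was near 0 with Slc7a1 (-0.015) and ran from -0.62 to -0.44 with the others.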

How the data were processed

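The deposited matrices give UMI counts for each gene in each barcode, written by Cell Ranger 6.1.1 per the file headers; the submitters' processing notes name Cell Ranger, Seurat and mm10, and other settings are not given in the sources used here. Barcodes with at least 1000 UMIs, 500 genes and at most 15% mitochondrial counts were kept. Because scrublet's automatic threshold marked at most 3 barcodes a library, the highest-scoring 0.8% per 1000 barcodes were removed as doublets, along with barcodes holding at least 50% of another class's markers. Cells were clustered with scanpy 1.11.5 and leidenalg 0.10.2 on 2000 variable genes, leaving out the 7 genes, 32 other transporter genes and Cldn5; the amino acid response genes were not left out. Clusters were named from marker lists, and zones are rebuilt from the cells themselves.

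UMI counts were summed per library and class where at least 20 cells allowed. They were tested with edgeR 4.0.16 (R 4.3.3) quasi-likelihood fits after TMM scaling and filterByExpr, with Benjamini-Hochberg adjustment at 0.05 over all genes; each table was scaled separately. Comparisons within a library kept the library as a block. Variance was estimated partly from all genes together, so very small p-values of these comparisons do not measure the spread of 3 libraries alone. Libraries with the same replicate number deviated together, with r = 0.43, 0.53 and 0.49 over 13265 genes. The fit with the replicate number as a block is therefore given too. All other pairs had negative r, but deviations were taken from each group's mean, so r for those pairs must be negative on balance. The negative values add no separate support, and all these r values come from the same data as the fits. The numbers come from the sample labels, which do not say what a number marks.

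Named genes were all 7 transporters, list genes past the threshold (at most 6 per list and comparison, by size) and the 3 genes most like each transporter. The genes, lists and tests were chosen with earlier results of these data known. Alternatives were DESeq2 1.42.0, RLE scaling, all genes without the count filter, stricter cell filters, resolution 1.0, other Cldn5 gates, thinning, each library left out and, chosen after seeing the data, sums without the Apln-led or Plvap-led subclusters. The fits were tested on simulated data. Intervals and floors cover counting error only.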

Additional observations from a re-analysis of the deposited data

Results flagged for a closer look

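Leaving Slc7a3, Slc38a3 and Slc38a5 aside, the difference between Cldn5-undetected and Cldn5-detected endothelial cells itself differed between iECKO and control libraries for the other genes of the 7. This was by the status by genotype term of edgeR's quasi-likelihood test. In the undetected control sums Slc7a3 had almost no UMIs, Slc38a5 had 4 to 5 and Slc38a3 had 4 to 12, so their terms are given without a test. On the log2 scale, iECKO minus control, the terms were 3.19 for Slc7a1, 3.44 for Slc7a3, 3.23 for Slc7a5, 0.52 for Slc3a2, 3.35 for Slc38a3, 3.99 for Slc38a5 and 1.52 for Slc6a6. The Plvap-led subcluster held 10.9 to 13.3% of undetected iECKO cells and 87.2 to 93.8% of undetected control cells. The Slc7a3 term rests on 1, 0 and 0 UMIs in the undetected sums of controls 1 to 3, and ran from 3.00 to 8.64 with each library left out in turn, the highest without control replicate 1. Without the Plvap-led cells 0 of the 7 terms passed, beside 186 of 14023 genes, in a fit with 1 undetected control sum of 21 cells and a median term over all genes of 2.75.

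The Plvap-led cells enter no zone comparison. In them Slc6a6 stood at 915, 996 and 989 CPM in iECKO 1 to 3, against 483, 695 and 665 CPM in controls 1 to 3, a log2 ratio of the means of 0.65, and the groups do not overlap. This difference was not tested.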

How the results depend on the processing

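The comparisons are iECKO against control unless named otherwise, values are log2 differences, and counts are of the 7 genes. Over all alternatives, 1213 values of single genes kept their direction and side of the threshold, 25 lost and 35 gained a call, and 93 changed sign. Slc7a5 in undetected against detected iECKO cells, called with all cells, changed sign without the Plvap-led cells. Slc7a3 in undetected iECKO against detected control cells, called with the block, changed sign with the block and without the Apln-led cells. The status by genotype terms without the Plvap-led cells, among them -0.15 for Slc7a5, -0.20 for Slc38a3 and -0.020 for Slc6a6, come from 1 undetected control sum of 21 cells with a median of 2.75 over all genes, and are not read as reversals.

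With the replicate number as a block, 2 genes were called in all endothelial cells, beside 1.64% of all genes tested (2 without the Plvap-led cells). In capillary cells 3 were called, beside 4.21% (3 without the Apln-led cells, beside 1.5%). In detected iECKO against detected control cells 2 were called, beside 2% (2 without the Plvap-led cells). In undetected iECKO against detected control cells 5 were called, beside 9.82%. DESeq2 called 2 in capillary cells (299 of 12328 genes). Without a filter on low counts, 2 were called in the arterial and 2 in the venous zone by genotype term. Without the Apln-led cells 1 was called in undetected against detected iECKO capillary cells. Without the Plvap-led cells 1 was called in undetected iECKO against detected control cells and 0 in the status by genotype term. With each library left out in turn, 0 to 1 were called in capillary cells (beside 0 to 304 of all genes), the 1 being Slc7a3 without iECKO replicate 3. In undetected against detected iECKO capillary cells 1 to 4 were called (beside 210 to 687 of all genes), with 1 without iECKO replicate 1. The cause of these changes was not tested. Where no figure for all genes stands beside a count here, the count describes that fit only.

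With subclusters at resolution 1.0 the sign turned to 0.17 for Slc38a3 and -0.0069 for Slc38a5 in arterial cells, 0.11 for Slc7a1 and 0.0033 for Slc7a3 in the arterial zone by genotype term, -0.057 for Slc7a5 in the venous zone by genotype term, -0.036 for Slc6a6 in venous against capillary control cells and -0.035 for Slc7a5 in arterial against venous control cells. With stricter cell filters the sign turned to -0.027 for Slc38a3 in venous cells and 0.18 for Slc7a3 and -0.074 for Slc6a6 in the venous zone by genotype term. Without the Apln-led cells the sign turned to 0.20 for Slc7a3 and -0.0087 for Slc7a5 in the arterial zone by genotype term, 0.78 for Slc7a3 and -0.053 for Slc7a5 in the venous zone by genotype term, 0.085 for Slc7a5 and 0.0080 for Slc6a6 in undetected against detected iECKO capillary cells, -0.098 for Slc38a3 in detected iECKO against detected control cells and -0.17 for Slc7a3 in undetected iECKO against detected control cells. Without a filter on low counts the sign turned to 0.012 for Slc7a3 in the venous zone by genotype term, -0.042 for Slc6a6 in venous against capillary control cells, -0.020 for Slc7a3 in undetected against detected iECKO capillary cells and -0.011 for Slc38a3 in detected iECKO against detected control cells. With mixed barcodes kept the sign turned to -0.032 for Slc7a5 in the venous zone by genotype term, -0.0018 for Slc6a6 in venous against capillary control cells and -0.013 for Slc38a3 in detected iECKO against detected control cells. Without the Plvap-led cells the sign turned to 0.14 for Slc7a3 and 0.052 for Slc7a5 in undetected against detected iECKO cells, -0.0035 for Slc38a3 in detected iECKO against detected control cells and 0.26 for Slc7a5 in undetected iECKO against detected control cells. After thinning to 2000 UMIs the sign turned to 0.035 for Slc6a6 in undetected against detected iECKO cells and -0.26 for Slc7a3 and 0.063 for Slc6a6 in undetected against detected iECKO capillary cells. With 0 or 1 against at least 5 Cldn5 UMIs the sign turned to -0.022 for Slc7a3 and 0.024 for Slc6a6 in undetected against detected iECKO capillary cells and 0.014 for Slc7a5 in undetected iECKO against detected control cells. With DESeq2 the sign turned to -0.011 for Slc38a3 in detected iECKO against detected control cells. With RLE factors the sign turned to -0.011 for Slc38a3 in detected iECKO against detected control cells. With the replicate block and without the Apln-led cells the sign turned to -0.093 for Slc38a3 in detected iECKO against detected control cells and -0.16 for Slc7a3 in undetected iECKO against detected control cells. With the replicate block and without the Plvap-led cells the sign turned to -0.0018 for Slc38a3 in detected iECKO against detected control cells and 0.24 for Slc7a5 in undetected iECKO against detected control cells. After thinning to 4000 UMIs the sign turned to 1.80 percentage points for Slc38a3 in the share of cells with a UMI. Without thinning the sign turned to 3.75 percentage points for Slc38a3 in the share of cells with a UMI.

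With each library left out in turn, these values changed sign. In all endothelial cells the range was -0.040 to 0.41 for Slc7a5 and -0.12 to 0.039 for Slc38a3. In arterial cells the range was -0.14 to 0.099 for Slc38a3, -0.42 to 0.66 for Slc38a5 and -0.20 to 0.071 for Slc6a6. In capillary cells the range was -0.11 to 0.27 for Slc7a5. In venous cells the range was -0.26 to 0.54 for Slc7a5 and -0.058 to 0.22 for Slc38a3. In the arterial zone by genotype term the range was -0.39 to 0.10 for Slc7a1, -1.43 to 0.24 for Slc7a3, -0.21 to 0.33 for Slc7a5 and -0.034 to 0.30 for Slc38a3. In the venous zone by genotype term the range was -0.32 to 0.32 for Slc7a3, -0.17 to 0.26 for Slc7a5, -0.028 to 0.31 for Slc3a2 and -0.023 to 0.23 for Slc6a6. In venous against capillary control cells the range was -0.11 to 0.044 for Slc6a6. In arterial against venous control cells the range was -0.79 to 0.36 for Slc7a3 and -0.20 to 0.43 for Slc7a5. In undetected against detected iECKO capillary cells the range was -0.041 to 0.18 for Slc7a3, -0.092 to 0.068 for Slc7a5 and -0.069 to 0.0032 for Slc6a6. In detected iECKO against detected control cells the range was -0.053 to 0.40 for Slc7a5 and -0.091 to 0.059 for Slc38a3. In undetected iECKO against detected control cells the range was -0.27 to 0.17 for Slc7a5. In pericytes the range was -0.14 to 0.48 for Slc3a2 and -0.61 to 0.25 for Slc6a6. In microglia the range was -0.017 to 0.45 for Slc7a5 and -0.31 to 0.10 for Slc6a6. In the share of cells with a UMI the range was -2.01 to 0.29 for Slc38a3.

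Over all genes tested, calls ran from 0 to 291 in detected iECKO against detected control cells (reported 5), 125 to 1222 in undetected iECKO against detected control cells (reported 507), 210 to 1053 in undetected against detected iECKO capillary cells (reported 816), 595 to 1730 in undetected against detected iECKO cells (reported 1507), 0 to 85 in arterial cells (reported 0), 2090 to 3598 in arterial against capillary control cells (reported 3259), 3260 to 4553 in arterial against venous control cells (reported 4352), 0 to 519 in capillary cells (reported 16), 0 to 264 in all endothelial cells (reported 2), 1 to 23 in microglia (reported 3), 0 to 16 in pericytes (reported 2), 186 to 2722 in the status by genotype term (reported 2502), 0 to 101 in venous cells (reported 0), 3310 to 4926 in venous against capillary control cells (reported 4698), 0 to 482 in the arterial zone by genotype term (reported 4) and 0 to 450 in the venous zone by genotype term (reported 55). The stricter cell filters could not be fitted for pericytes. Precision is limited by 3 libraries per genotype, by 178 to 400 Apln-led cells in iECKO 2 and 3, and by the few UMIs of Slc7a3.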
